A study of Saccharomyces cerevisiae with 25 samples.

Results

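The histone genes of Saccharomyces cerevisiae are described here over a time course without phosphate. The 10 genes were taken by name, as all genes for the core histones, the linker histone and the H2A variant, and they are 10 of the 6650 named genes of the deposited table. They are HTA1 and HTA2 for histone H2A, HTB1 and HTB2 for H2B, HHT1 and HHT2 for H3, HHF1 and HHF2 for H4, HTZ1 for the variant H2A.Z and HHO1 for the linker histone H1. RNA sequencing covered 25 libraries. The one at 0 min came from cells in high phosphate medium, and the other 24 followed at steps of 15 min, from 15 to 360 min after the cells were moved to medium without phosphate. All cells shared the haploid BY4741 background, the reporter pho84pr-YFP (a yellow fluorescent protein driven by the promoter of PHO84) and PHO85 in DAmP form, a modification that makes its messenger RNA less stable. Pho85 is a cyclin-dependent kinase that signals phosphate supply and also takes part in cell cycle control. A strain with an intact PHO85 was not analysed here.

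Histones package DNA into nucleosomes, in which pairs of H2A, H2B, H3 and H4 form the core. In budding yeast each core histone is encoded by a pair of genes, arranged as divergent H2A-H2B or H3-H4 couples that share the DNA between them, and these genes are transcribed mainly in S phase, when new DNA is packaged. Spt10 binds the upstream activating sequences of the core genes, SBF and MBF act in late G1, and the HIR complex represses every core locus except HTA2-HTB2 outside S phase. HTZ1 and HHO1 are not part of these divergent couples. H2A.Z is placed at promoters by the SWR1 complex, and Hho1 binds linker DNA.

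The libraries differed widely in depth. With a library's smallest value read as 10 reads, listed reads ran from 766.5 at 210 min to 4954493 at 0 min, and 5 libraries (45, 75, 90, 210 and 330 min) held fewer than 100000. These are called shallow and the other 20 deeper, a limit set with the depths known. Levels are log2 RPM, where RPM is reads per 1000000 reads of the genes listed in that library, and genes under 10 reads are not listed. The genes listed in the shallow libraries took 12.95% to 84.1% of the reads at 0 min, against at least 91.8% in the deeper libraries. By these shares the smaller denominator by itself would raise log2 RPM in the shallow libraries by 0.25 at 75 min to 2.95 at 210 min. This estimate assumes the composition of the 0 min library. Ribosomal protein genes took 33.7% of listed reads at 0 min but 5.01% at 225 min, so it is rough for 210 and 330 min. What else sets the histone values of the shallow libraries was not tested. No histone gene was listed at 210 min. HTA1, HTA2, HHT2, HHF1 and HHF2 were listed in 24 libraries, HTB2 and HHT1 in 23, HTB1 in 22, HTZ1 in 21 and HHO1 in 19, and in the 20 deeper libraries only HHO1 at 360 min was missing. All 10 passed the filter on low values. Of the strain markers, 6 of 6 genes of mating type a were listed, at a summed 2364 to 5074 RPM in the deeper libraries, while the 4 genes of mating type alpha summed to at most 109 RPM and the 4 genes deleted in BY4741 were never listed.

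Time points were not replicated. Libraries were therefore grouped by 8 in order of time, as an early window from 15 to 120 min, a middle window from 135 to 240 min and a late window from 255 to 360 min, and the libraries of a window served as its replicates. P-values therefore measure the spread between neighbouring time points, changes within a window included, and the single library at 0 min was given the spread of the windows. In RNA from a whole culture, a change in the number of cells that transcribe a gene and a change in RNA per cell cannot be told apart.

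The genes form 4 divergent couples and 2 single loci in the R64 genome, and each coding sequence is a single exon. HTB1 (chrIV:914317-914712, minus strand) and HTA1 (chrIV:915530-915928, plus strand) lie 817 bases apart, and HTA2 (chrII:235394-235792, minus strand) and HTB2 (chrII:236492-236887, plus strand) lie 699 bases apart. HHF1 (chrII:255373-255684, minus strand) and HHT1 (chrII:256331-256741, plus strand) are separated by 646 bases, and HHT2 (chrXIV:575640-576050, minus strand) and HHF2 (chrXIV:576727-577038, plus strand) by 676 bases. HTZ1 lies at chrXV:303579-303983 and HHO1 at chrXVI:308828-309604, both on the minus strand.

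The coding sequences of the copies are much alike, which bears on how reads are split. HTA1 and HTA2 were identical at 93.7% of bases, HTB1 and HTB2 at 87.9%, HHT1 and HHT2 at 93.2%, and HHF1 and HHF2 at 97.4%, where only 8 of 312 bases differ. The starts of the H3 and H4 genes are shown because the copies of these histones moved unequally below. Each line holds the first 60 coding bases read from the R64 genome, with capitals where the copies differ.

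HHT1: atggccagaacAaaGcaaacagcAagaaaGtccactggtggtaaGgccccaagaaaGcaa

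HHT2: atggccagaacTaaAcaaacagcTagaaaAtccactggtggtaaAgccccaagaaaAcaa

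HHF1: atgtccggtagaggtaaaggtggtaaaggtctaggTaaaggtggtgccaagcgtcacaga

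HHF2: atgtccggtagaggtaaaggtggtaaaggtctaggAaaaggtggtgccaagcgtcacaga

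The stretches lie at chrII:256331-256390, chrXIV:575991-576050, chrII:255625-255684 and chrXIV:576727-576786. HHT1 and HHT2 differ at 6 of these bases, HHF1 and HHF2 at 1. Neither the read length nor the treatment of reads that match both copies is stated in these sources. With reads of 36 bases, a length assumed here, 33.6% of the positions in HHF1 and HHF2 would match elsewhere in the genome, 20.7% in HHT1 and HHT2, 9.89% in HTA1 and HTA2, and 0% in HTB1, HTB2, HTZ1 and HHO1. With reads of 25 bases it would be 50.3% in HHF1 and HHF2 and 4.30% in HTB1 and HTB2. The longest stretch shared by HHF1 and HHF2 is 80 bases. The read numbers of the copies were often not whole (tolerance 0.01 reads), in 20 of 20 deeper libraries for HHF1 and HHF2, 18 for HHT1 and HHT2, 13 for HTA1 and HTA2 and 7 for HTB1 and HTB2. Both copies of each core histone nevertheless summed to whole reads in 20 of 20, and HTZ1 and HHO1 were whole wherever listed. The coding sequences of HTB1 and HTB2 share no stretch of 36 bases, yet their read numbers were not always whole. The percentages at that assumed length may therefore be too low. Reads were thus divided between the copies of all 4 core histones, by a rule not stated in these sources, so levels and ratios of single copies are uncertain while sums of copies do not depend on the division.

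The activating sequence bound by Spt10 was searched as GCGAAAA, then ANTNN, then GAAC, without gaps and on both strands of the 700 bases before each coding start. An exact match was found before 2 of 5999 genes (0.0333%), which are HTA1 and HTB1 through the DNA they share. With up to 2 mismatches it was found before 4.57% of genes and before 6 of the 10 histone genes, HTA1, HTB1, HTA2, HTB2, HHT1 and HHF1. The matches in the DNA between the genes of a couple are shown because both genes share that DNA. Capitals mark the 16 bases aligned to the motif, mismatches included.

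HTA1-HTB1, first match: ttcttccGCGAAAAAATGAGAACgatggat

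HTA1-HTB1, next match: gcaacgcGCGAAAAAGTGAGAACagccttc

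HTA1-HTB1, last match: cagtgagGCGAAAATTTTGGAACagcgcta

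HTA2-HTB2: tcactttGAGAAATAATGGGAACaccttac

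HHT1-HHF1: ggacaatGCGAAAATGTGAGAACgagagca

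The capitals lie at chrIV:914957-914972 (minus strand, exact), chrIV:914992-915007 (plus strand, exact), chrIV:915113-915128 (minus strand, 1 mismatch), chrII:236108-236123 (plus strand, 2 mismatches) and chrII:256042-256057 (minus strand, 1 mismatch). No match within 2 mismatches stood between HHT2 and HHF2, and no match says only that these letters are not in that window. CNCGAAA, the site of SBF, was present before HTA1, HTB1, HHT2, HHF2, HHO1 and HTZ1 and before 27.3% of all genes. ACGCGT, the site of MBF, was present before HTA2 and HTB2 and before 6.98% of all genes. CACGTG, the site of the phosphate regulator Pho4, was found before none of the 10 genes and before 8.15% of all genes.

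HHF1, for H4, had the highest level per length and HHO1 the lowest. Over the 20 deeper libraries HHF1 averaged 6993 ± 2661 RPM per kb of coding length (SD), HHF2 4862 ± 1204, HHT2 4221 ± 718, HTA1 3890 ± 984, HTA2 3531 ± 930 and HHT1 2393 ± 675. The H2B genes were lower, HTB2 at 1810 ± 399 and HTB1 at 1319 ± 322 RPM per kb, followed by HTZ1 at 495 ± 122 and HHO1 at 120 ± 39.7 in 19 libraries. HHF1, HHF2, HHT2, HTA1 and HHT1 each lie within 1 SD of the gene that follows in this order, but HTB1 was above HTZ1 in 20 of 20 libraries and HTZ1 above HHO1 in 19 of 19.

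Together the 10 genes gave 0.863% of listed reads at 0 min (exact 95% interval 0.855% to 0.872%, counting error only). In the 5 deeper early libraries their share was 0.833% ± 0.060 (SD), with values of 0.815% at 15 min, 0.753% at 30 min, 0.882% at 60 min, 0.903% at 105 min and 0.813% at 120 min. In the middle window it was 0.917% at 135 min, 1.15% at 180 min and 1.503% at 195 min, the highest deeper library. The genes listed at 195 min took only 91.8% of the reads at 0 min, which bears on its denominator. At 225 min, where the share was 1.43%, they took 99.1%. The deeper late libraries began at 1.39% at 255 min, reached 1.42% at 285 min, and ended at 0.818% at 345 min and 0.983% at 360 min. All 7 middle libraries were above the 5 deeper early ones, and the late libraries overlapped both. The shallow libraries at 45, 75, 90 and 330 min gave 1.34% to 1.75%.

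The ribosomal protein genes went from 33.7% of listed reads at 0 min to 4.07% to 7.52% in the deeper late libraries, which changes the share left for other genes. As a share of the reads outside those genes, the histone genes took 1.303% at 0 min and 1.21% ± 0.089 (SD, n = 5) in the deeper early libraries. The middle libraries gave 1.44% ± 0.122 (n = 7), and the deeper late ones 1.26% ± 0.230 (n = 7). On this scale the last libraries were low, at 0.859% at 345 min and 1.06% at 360 min, against 1.49% at 285 min.

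**Figure D1:**
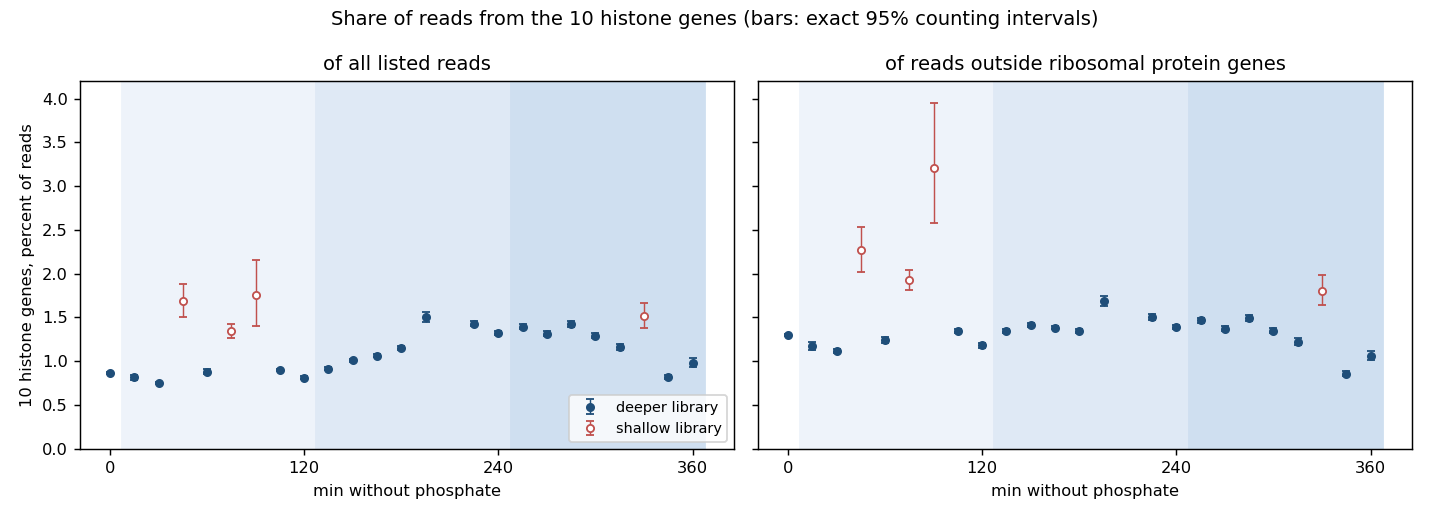
Share of reads from the 10 histone genes (percent, y axis) against time without phosphate (min, x axis), of all listed reads on the left and of reads outside ribosomal protein genes on the right; each point is 1 library, bars are exact 95% counting intervals, open points are shallow libraries and shading marks the 3 windows. In the deeper libraries the left share rises from 0.753% at 30 min to 1.503% at 195 min and ends at 0.983% at 360 min.

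In tests across 4364 genes with limma, with p-values adjusted by Benjamini-Hochberg over all of them, 2 of the 10 histone genes were higher in the late than in the early window over all libraries, HHT1 and HHO1, and none was lower (4 higher and 0 lower at an unadjusted p under 0.05). Of all tested genes 29.8% were called higher and 7.36% lower, so 2 of 10 is not above that share. The comparison over all libraries is rough. No shallow library listed more than 1693 genes, so many tested genes enter this fit with deeper libraries only. The core histone genes have values in shallow libraries, where the smaller denominator raises log2 RPM. The median log2 change of all genes was 0.35, and 4 of the 10 histone genes were above it. In the deeper libraries 4 of 10 were called higher, HHF1, HHT1, HTA1 and HHO1, against 34.9% of all genes called higher and 7.54% lower, with a median of all genes of 0.37.

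The H4 gene HHF1 had the largest rise of the 10 in the deeper libraries. It had 10.27 log2 RPM at 0 min, a lowest, median and highest value of 10.19, 10.32 and 10.57 in the deeper early libraries, of 10.51, 11.15 and 11.76 in the middle window and of 10.73, 11.59 and 11.69 in the deeper late libraries. All deeper late values were above all deeper early ones. The log2 change from early to late was 1.06 ± 0.22 (SE), or 2.08-fold (adjusted p = 0.000347), with 0.61 ± 0.28 over all libraries (adjusted p = 0.0825), where the early window includes shallow libraries at 11.36 to 11.89. Over all libraries it was called without the library at 45, 90 or 345 min, with changes of 0.72 to 0.76 (adjusted p of 0.0252 to 0.0468). HHF1 was also above 0 min in the deeper late libraries, by 1.14 ± 0.39 (adjusted p = 0.0355), the only histone gene called against 0 min in any contrast of the deeper libraries, where 18.5% of all genes were called higher. That call was lost after median centring, with 0.61 ± 0.34 (adjusted p = 0.232), and when scaled to reads outside ribosomal protein genes, with 0.62 ± 0.32 (adjusted p = 0.183).

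HHF2, the other H4 gene, had 10.36 log2 RPM at 0 min and a similar early level. Its deeper early libraries had a lowest, median and highest value of 10.15, 10.41 and 10.45, the middle ones 10.55, 10.68 and 11.38, and the deeper late ones 9.54, 10.65 and 10.86. The middle libraries were all above the deeper early ones, and the late libraries overlapped both. The change from early to late was 0.08 ± 0.20 in the deeper libraries (adjusted p = 0.75) and -0.35 ± 0.27 over all libraries (adjusted p = 0.321), where the early window holds the value of 12.36 at 90 min from 26 reads. Between middle and late it was -0.35 ± 0.18 (adjusted p = 0.224, deeper libraries).

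For H3, HHT1 rose and HHT2 did not pass the test. HHT1 had 9.56 log2 RPM at 0 min, and its lowest, median and highest values were 9.16, 9.27 and 9.57 in the deeper early, 9.59, 9.88 and 10.37 in the middle and 9.79, 10.25 and 10.45 in the deeper late libraries. No deeper early library reached the middle or late ones. The early to late change was 0.89 ± 0.17, or 1.85-fold, in the deeper libraries (limma, adjusted p = 0.000169) and 0.58 ± 0.22 over all libraries (adjusted p = 0.0406). HHT2 changed by 0.28 ± 0.16 (adjusted p = 0.162, deeper libraries), with deeper late values of 10.40 to 11.12 around deeper early values of 10.44 to 10.59 and 10.52 at 0 min.

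The calls of HHT1 and HHO1 over all libraries rested on single libraries. That of HHT1 was lost without the library at 15, 30, 60, 105, 120, 255, 270, 285, 300, 315 or 360 min, with adjusted p of 0.0541 to 0.0965, and that of HHO1 without the library at 15, 30, 105, 120, 255 or 270 min, with adjusted p of 0.0504 to 0.0761. In the deeper libraries the calls of HHF1, HHT1 and HTA1 were kept in each of 12 fits without 1 early or late library, and that of HHO1 was lost without the library at 105 min (adjusted p = 0.0535) or 270 min (adjusted p = 0.0619).

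Of the H2A genes, HTA1 rose in the deeper libraries. It had 10.27 log2 RPM at 0 min, with 9.83, 10.23 and 10.33 as lowest, median and highest values early, 10.28, 10.64 and 11.19 in the middle window and 10.30, 10.67 and 11.05 late. The windows overlapped at their ends. The early to late change was 0.60 ± 0.18, or 1.52-fold (adjusted p = 0.00895), but 0.24 ± 0.24 over all libraries (adjusted p = 0.443). HTA2 changed by 0.29 ± 0.20 (adjusted p = 0.259, deeper libraries), from deeper early values of 9.88 to 10.26 to deeper late values of 9.59 to 10.76.

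Neither H2B gene passed the test of late against early. HTB1 had 8.62 log2 RPM at 0 min, deeper early values of 8.31 to 8.92 with a median of 8.73, and deeper late values of 8.47 to 9.55 with a median of 9.11. Its change was 0.45 ± 0.18 in the deeper libraries (adjusted p = 0.0524) and 0.48 ± 0.21 over all libraries (adjusted p = 0.0798). Without the library at 345 min it was called, with 0.56 (adjusted p = 0.0121, deeper libraries) and 0.59 (adjusted p = 0.0272, all libraries). It was also called in the deeper libraries without 105 min (adjusted p = 0.0493) or 360 min (adjusted p = 0.0392), and over all libraries without 75 min (adjusted p = 0.0482).

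HTB2 had a higher level at 0 min than in any deeper early library, 9.72 against 9.02 to 9.49 log2 RPM. It then stood at 9.95 at 225 min and 9.87 at 255 min, and ended at 8.75 at 345 min and 8.67 at 360 min, the lowest values among the deeper libraries. The late window therefore spans both its high and its low values. The change from early to late was 0.00 in the deeper libraries (95% interval -0.41 to 0.41, adjusted p = 0.992).

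The variant and linker genes had the lowest levels of the 10, so their values rest on fewer reads. HTZ1 had 7.33 log2 RPM at 0 min, 6.87 to 7.70 in the deeper early, 7.53 to 8.32 in the middle and 7.08 to 8.02 in the late libraries, from 25 to 386 reads per deeper library without phosphate. The windows overlapped, and the change from early to late was 0.21 ± 0.19 (adjusted p = 0.392, deeper libraries). HHO1 had 5.83 log2 RPM at 0 min, from 282 reads, and 21 to 165 reads in the other libraries that listed it. Its early values were 6.002 to 6.24, its middle values 5.78 to 7.31 and its late values 6.40 to 7.31. No late library that listed HHO1 overlapped the early ones, and the change was 0.65 ± 0.23, or 1.57-fold (limma, adjusted p = 0.0311 over all libraries, 0.0242 in the deeper libraries). Both fits use the same values of HHO1, since no shallow library listed it. The deeper library at 360 min did not list HHO1. The lowest value listed there was 58.9 RPM, under the lowest early value of HHO1, 64.1 RPM. HHO1 at 360 min was thus below its early values, and the change leaves it out. Among listed values of the deeper libraries the late window lay wholly above the early one for HHF1, HHT1 and HHO1, 3 of 10 histone genes, against 20.3% of all tested genes. For HHO1 this holds only with 360 min left out.

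**Figure D2:**
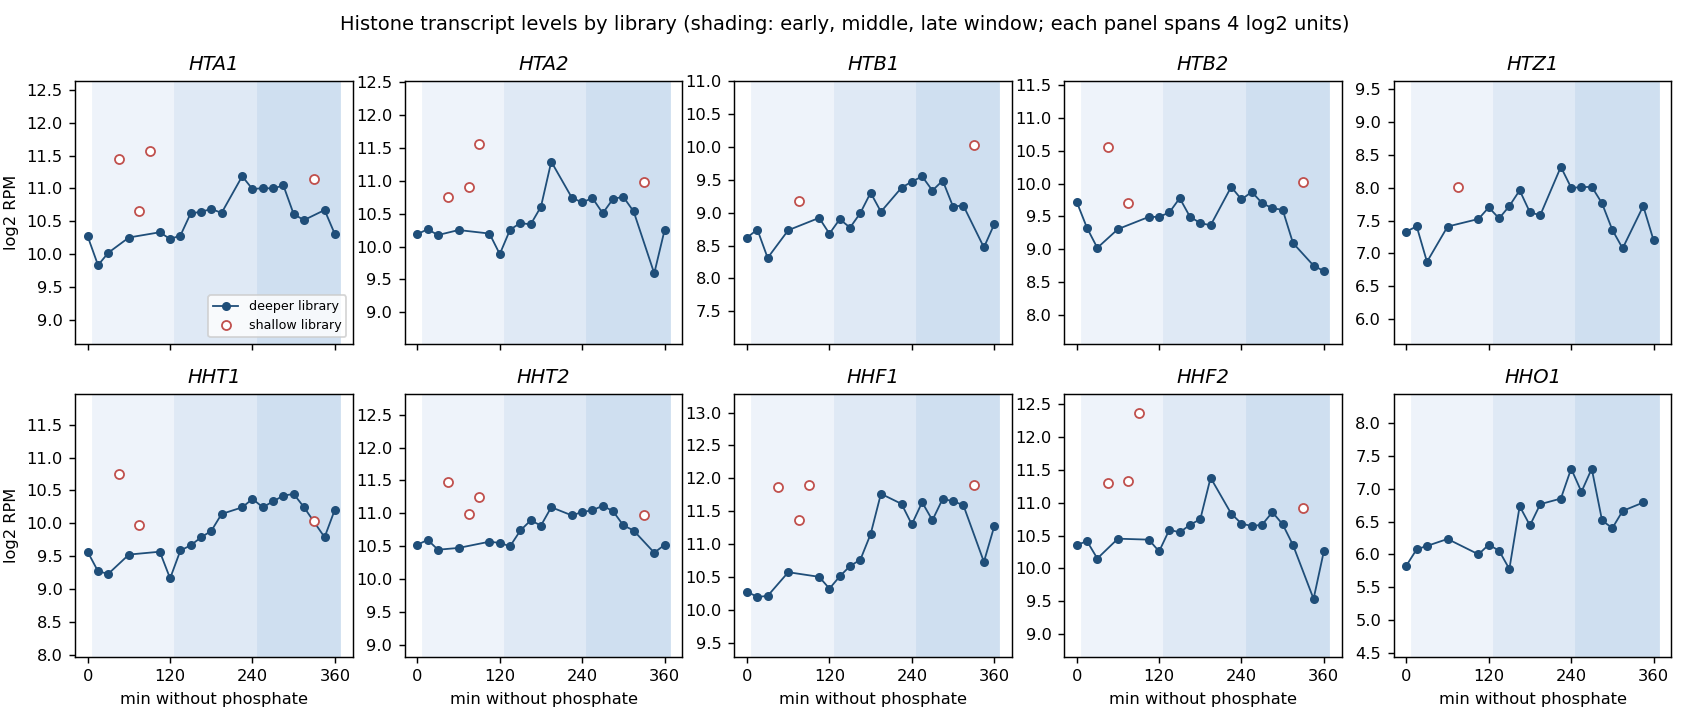
Level of each histone gene (log2 RPM, y axis) against time without phosphate (min, x axis), 1 panel per gene; points are single libraries, filled for deeper and open for shallow ones, lines join the deeper libraries, shading marks the windows and each panel spans 4 log2 units. HHF1 moves from 10.27 at 0 min to 11.69 at 285 min, while HTB2 ends at 8.67 at 360 min.

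In the contrasts with 0 min over all libraries none of the 10 genes was called. At an unadjusted p under 0.05 there were 0 for early, 0 for middle and 1 for late against 0 min, and limma called 0.229%, 1.76% and 19.5% of all genes. With a single 0 min library the errors were wide: HHF1 had a late change of 1.20 ± 0.59 and HTB2 one of -0.30 ± 0.48. Middle against early called none over all libraries (0 at an unadjusted p under 0.05, 7.08% of all genes called), but 3 in the deeper libraries, HHF1 at 0.75 ± 0.22 (adjusted p = 0.0316), HHT1 at 0.60 ± 0.17 (adjusted p = 0.0286) and HTA1 at 0.59 ± 0.18 (adjusted p = 0.040), against 9.3% of all genes called higher. None of the 10 was called after median centring or when scaled to reads outside ribosomal protein genes (limma, 3 higher and 0 lower at an unadjusted p under 0.05 in each), where HHF1 had 0.52 ± 0.19 and 0.49 ± 0.17 (adjusted p = 0.0751 and 0.0752). Of all 4364 tested genes, 491 were higher and 599 lower at an unadjusted p under 0.05 after centring, and 442 and 628 on the other scale. Without rescaling, late against middle called none over all libraries or in the deeper ones (limma, 0 at an unadjusted p under 0.05 in both), against 5.55% and 9.33% of all genes. After median centring 0 were called, with 0 higher and 3 lower at an unadjusted p under 0.05, against 460 and 500 of all genes. Scaled to reads outside ribosomal protein genes HHF2 was called lower, against 4.86% of all genes. On that scale 0 were higher and 5 lower at an unadjusted p under 0.05, against 388 and 596 of all genes.

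Relative to the median of the genes listed in all deeper libraries, HHF1 and HHT1 were the histone genes still called higher in late against early. HHF1 changed by 0.67 ± 0.19 (adjusted p = 0.00794) and HHT1 by 0.50 ± 0.15 (adjusted p = 0.0106), against 15.4% of all genes called higher and 15.7% lower on that scale. HTA1 changed by 0.21 ± 0.17 (adjusted p = 0.371) and HHO1 by 0.28 ± 0.20 (adjusted p = 0.326). HTB2 and HHF2 had centred changes of -0.39 ± 0.21 and -0.31 ± 0.18 (adjusted p = 0.159 and 0.221). Scaled instead to the reads outside ribosomal protein genes, HHF1 and HHT1 were called with 0.59 ± 0.17 and 0.43 ± 0.13 (adjusted p = 0.011 and 0.0173), against 13.1% of all genes called higher. On that scale HHF2 was called lower in late against middle, by -0.56 ± 0.17 (adjusted p = 0.0408), where 4.86% of all genes were.

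**Figure D3:**
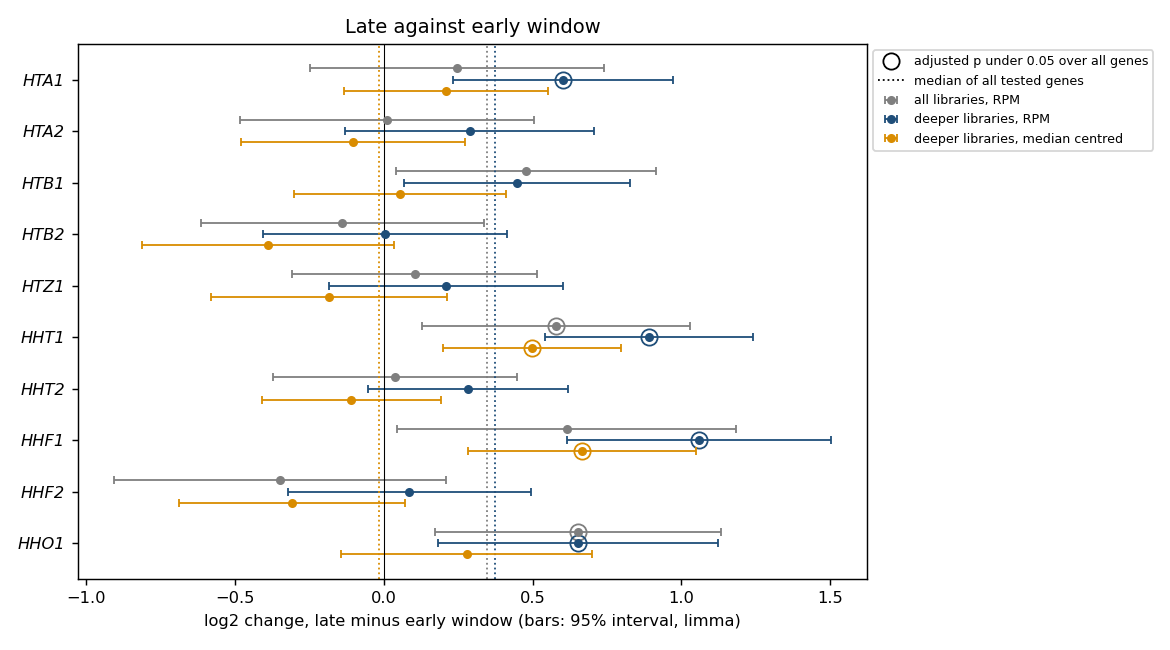
Change of each histone gene from the early to the late window (log2, x axis; bars are 95% intervals from limma) over all libraries, in the deeper libraries and in the deeper libraries after median centring; rings mark an adjusted p under 0.05 and dotted lines the median of all genes under each fit. HHT1 is ringed in each fit, HHF1 in both fits of the deeper libraries, at 1.06 and 0.67.

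A spline of time, which needs no windows, called all 10 genes as changing in the deeper libraries, where 53.7% of all genes were called, with adjusted p from 3.06e-07 for HHF1 to 0.022 for HTZ1. After median centring it called 9 of 10, all but HHO1 (adjusted p = 0.277), against 38.4% of all genes. HTB2 then had the smallest adjusted p of the 10, 8.76e-06. Over all libraries the spline called only HHO1 (adjusted p = 0.0149), against 40.6% of all genes. That share is only roughly comparable. The core histone genes have values in shallow libraries, while HHO1 and many of the other tested genes have none there.

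The ratio of the copies of a histone within a library does not depend on how that library is scaled. For H4 the log2 ratio of HHF1 to HHF2 was -0.08 at 0 min, 0.06 at 105 and 120 min, 0.40 at 180 min, 0.78 at 225 min, 0.99 at 255 min and 1.00 at 360 min. It averaged 0.03 ± 0.30 (SD, n = 8) in the early, 0.33 ± 0.31 (n = 7) in the middle and 0.99 ± 0.17 (n = 8) in the late window. No late library overlapped an early one. HHF1 went from as many reads as HHF2, a ratio of 1.02, to a ratio of 1.99. The difference of 0.96 gave p = 0.000155 in a two-sided exact permutation test, the smallest this design allows, and 0.000932 after adjustment over the 6 ratios tested.

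The copies of H3 and H2B moved less from the early to the late window. The log2 ratio of HHT1 to HHT2 was -0.96 at 0 min, -1.09 ± 0.23 (SD, n = 7) early and -0.61 ± 0.22 (n = 8) late, a difference of 0.48 (exact permutation test, adjusted p = 0.00435). Its early and late values overlapped through the shallow libraries at 45 and 330 min, and in the deeper libraries, where they did not, the difference was 0.61 (exact permutation test, adjusted p = 0.00505). The log2 ratio of HTB1 to HTB2 was -1.10 at 0 min, -0.63 ± 0.11 (n = 6) early and -0.18 ± 0.23 (n = 8) late, without overlap, a difference of 0.45 (exact permutation test, adjusted p = 0.0020). HTB1 stood at 0.467 times the reads of HTB2 in the single library at 0 min. It was at 0.570 to 0.691 times in the early libraries that listed both, and at 0.884 times in the late window.

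The copies of H2A showed no difference that passed the test. The log2 ratio of HTA1 to HTA2 was 0.08 at 0 min, 0.04 ± 0.36 (SD, n = 8) early and 0.28 ± 0.38 (n = 8) late (exact permutation test, difference 0.23, adjusted p = 0.276), and it ran from -0.66 at 195 min to 1.08 at 345 min. HTZ1 fell against HTA1, from a log2 ratio of -2.73 ± 0.26 (n = 6) early to -3.14 ± 0.18 (n = 7) late, a difference of -0.41 with overlapping windows (exact permutation test, adjusted p = 0.0175). HHO1 against HTA1 differed by -0.02 (exact permutation test, adjusted p = 0.926).

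The sums of both copies are free of how reads were divided between them. In the deeper libraries the sums for H4, H3 and H2A were called higher in late than in early, by 0.66 ± 0.20, 0.50 ± 0.16 and 0.46 ± 0.17 (limma, adjusted p = 0.0114, 0.0166 and 0.0366), against 35% of all genes called higher. H2B had 0.20 ± 0.19 (adjusted p = 0.413). As a share of listed reads H4 went from 0.262% ± 0.025 (SD, n = 5) early to 0.422% ± 0.092 (n = 7) late in these libraries, and H2B from 0.106% ± 0.014 to 0.125% ± 0.034. After median centring none of the 4 sums was called in late against early (limma, 0 at an unadjusted p under 0.05), with 0.26 ± 0.18 for H4 and -0.20 ± 0.19 for H2B (adjusted p = 0.277 and 0.455). None was called over all libraries either (limma, 0 at an unadjusted p under 0.05), with 0.13 ± 0.24 for H2A, 0.22 ± 0.22 for H2B, 0.27 ± 0.22 for H3 and 0.21 ± 0.28 for H4, with adjusted p of 0.682, 0.453, 0.339 and 0.58. The spline of time called all 4 sums in the deeper libraries, where it called 53.7% of all genes with copies kept apart. After median centring it again called all 4, with adjusted p from 7.30e-05 for H2B to 0.0218 for H3, against 38.4% of all genes. Over all libraries it called none of the 4.

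**Figure D4:**
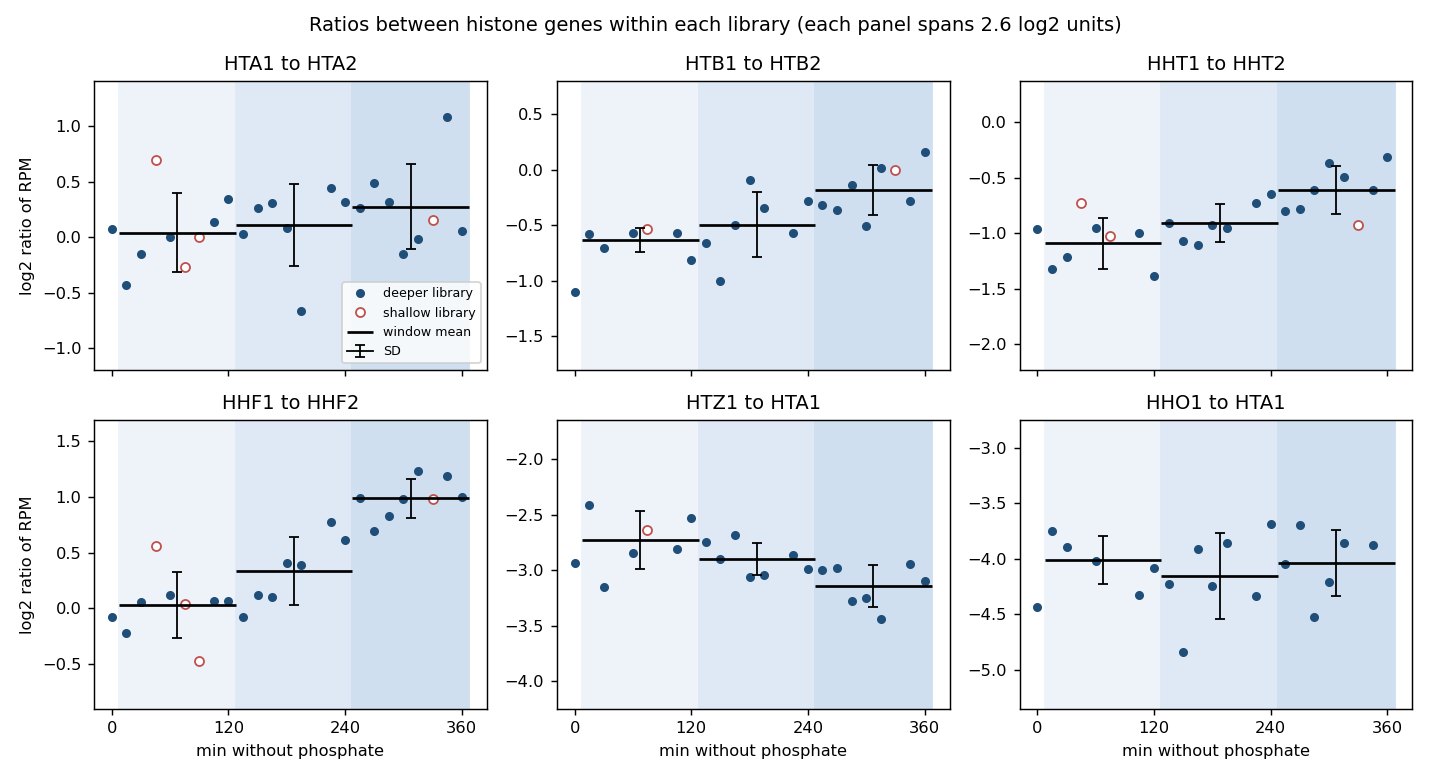
Ratio of 2 histone genes within each library (log2 ratio of RPM, y axis) against time without phosphate (min, x axis); points are libraries, filled for deeper and open for shallow ones, bars are window means with SD and each panel spans 2.6 log2 units. The ratio of HHF1 to HHF2 goes from 0.03 in the early window to 0.99 in the late window, and those of HTB1 to HTB2 and HHT1 to HHT2 rise by 0.45 and 0.48.

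Among themselves the 8 core genes had pairwise correlations of log2 RPM over the 20 deeper libraries of 0.20 to 0.94, with a median of 0.72. These libraries share time and scaling, so the values are a description. The highest was between HHT1 and HHF1, a divergent couple, and HTA2 and HHF2 on different chromosomes had 0.91. The lowest was between HTB2 and HHF1, at 0.20. The couples HTA1-HTB1 and HHT2-HHF2 had 0.81 and 0.77, and HTA2-HTB2 had 0.45.

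Of 2466 other genes listed in all deeper libraries, those most like the mean of the 8 core genes were VPS24 (r = 0.91), CLN2 (0.88), MVP1 (0.87), HSL1 (0.86), QNS1 (0.85), PDS5 (0.83), PDI1 (0.83), BNA3 (0.82), POB3 (0.81) and SWH1 (0.81). CLN2 encodes a G1 cyclin, HSL1 a kinase of the morphogenesis checkpoint, PDS5 a cohesin factor and POB3 a subunit of the histone chaperone FACT. VPS24 and MVP1 act in endosomal sorting and PDI1 in protein folding in the endoplasmic reticulum. The correlations of all these genes had a median of 0.39 and a 95th percentile of 0.72. The least like were URA2 (-0.85), for the entry to pyrimidine synthesis, and CBF5 (-0.85) and NOP58 (-0.82), for proteins of snoRNA particles in ribosome assembly.

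Genes that act on histones or beside them in the cell cycle were read for late against early over all libraries, where the median of all genes was 0.35 and 29.8% of all genes were called higher and 7.36% lower. Most genes named from these lists had no early or late value in a shallow library. Their changes are thus those of the deeper libraries, while those of the core histone genes include shallow values. Of 13 tested regulators of histone gene transcription 4 were called higher and 0 lower (5 and 0 at an unadjusted p under 0.05), with a median of 0.32. They were MBP1, the DNA-binding part of MBF, with 0.58 ± 0.21, HPC2 of the HIR complex with 0.64 ± 0.24, YTA7, a chromatin ATPase at histone loci, with 0.50 ± 0.19, and RTT106, an H3-H4 chaperone that acts with HIR, with 0.46 ± 0.18 (limma, adjusted p of 0.0374 to 0.0458). None of the 13 was called after median centring, against 15.4% of all genes called higher and 15.7% lower (limma, 0 higher and 1 lower at an unadjusted p under 0.05).

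Of 16 histone chaperones 2 were called higher and 0 lower (2 and 1 at an unadjusted p under 0.05), with a median of 0.19. These were MSI1 of chromatin assembly factor 1, with 0.94 ± 0.27, and PSH1, the ubiquitin ligase for the centromeric H3 variant, with 0.68 ± 0.25 (limma, adjusted p = 0.00901 and 0.0359). Of 16 subunits of SWR1 and INO80, which place and remove H2A.Z, ARP5 was called higher, with 0.68 ± 0.22 (limma, adjusted p = 0.0157), and SWC3 had 0.66 ± 0.29 (adjusted p = 0.0783), with a list median of 0.30. Of 9 genes of histone mRNA turnover MTR4, a helicase that works with the nuclear exosome, was called lower, at -0.83 ± 0.30 (limma, adjusted p = 0.0326), and TRF5 had 0.55 ± 0.23 (adjusted p = 0.0648), with a median of 0.10. Of 25 histone modifying enzymes 9 were called higher, with a median of 0.51, GCN5, the acetyltransferase of SAGA, with 0.86 ± 0.23 and RPD3, a deacetylase, with 0.54 ± 0.17 (limma, adjusted p = 0.00569 and 0.0161). After median centring, where 15.4% of all genes were called higher and 15.7% lower, no gene of these 4 lists was called higher. Lower were then 2 of 16 chaperones, 0 of 16 SWR1 and INO80 subunits (0 higher and 0 lower at an unadjusted p under 0.05), 3 of 9 turnover genes and 2 of 25 modifying enzymes.

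Lists of the cell cycle were read in the same way, against the same 29.8% of all genes called higher. Of 30 tested genes of DNA replication and S phase 4 were higher and 0 lower (7 and 0 at an unadjusted p under 0.05), with a median of 0.20. RNR4 and RNR2, the small subunits of ribonucleotide reductase, had 1.20 ± 0.18 and 1.36 ± 0.23 (limma, adjusted p = 1.32e-05 and 6.48e-05), and CTF4 and PRI1 of the replication fork had 0.80 ± 0.24 and 0.62 ± 0.22 (adjusted p = 0.0126 and 0.028). Of 11 G1/S genes 5 were higher and 0 lower (5 and 0 at an unadjusted p under 0.05), with a median of 0.53: PCL1, a G1 cyclin of Pho85 itself, with 1.06 ± 0.26, CRT10 with 0.80 ± 0.22, HCM1, an S phase transcription factor, with 1.01 ± 0.28, and the cyclins CLN2 with 0.66 ± 0.21 and CLN1 with 1.09 ± 0.36 (limma, adjusted p of 0.00264 to 0.0207). Of 13 genes of G2/M and M/G1 10 were higher and 0 lower (12 and 0 at an unadjusted p under 0.05), with a median of 0.71, PIR1, a cell wall protein, at 1.36 ± 0.18 and CLB1, a mitotic cyclin, at 1.66 ± 0.24 (limma, adjusted p = 4.29e-06 and 9.97e-06). After median centring, against 15.4% of all genes called higher and 15.7% lower, 2 replication genes, 1 G1/S gene and 5 G2/M and M/G1 genes were still called higher, and 2 replication genes lower. The cytosolic ribosomal protein genes were called lower in 135 of 136 cases, with a median of -2.68, RPL9B at -2.82 ± 0.32 and RPL16B at -3.16 ± 0.35 (limma, adjusted p of 1.31e-06 for both). Shares of cells in each phase were not measured, and the part of the cell cycle in the histone values was not tested.

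**Figure D5:**
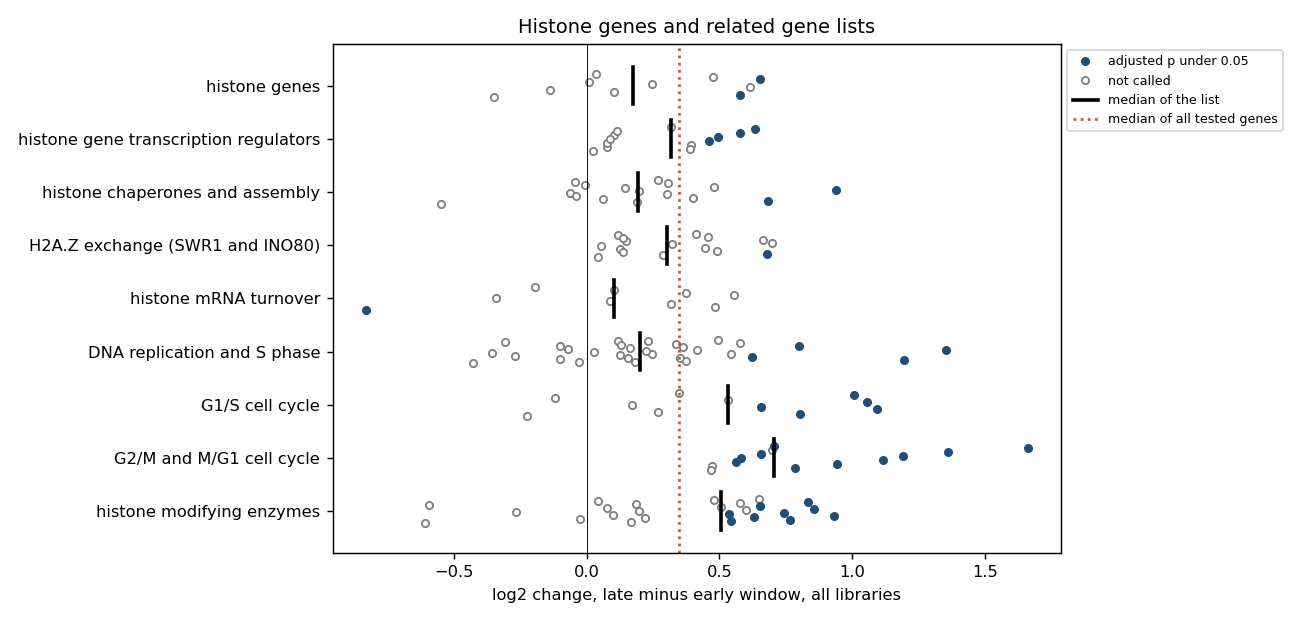
Change from the early to the late window over all libraries (log2, x axis) of the histone genes and of each list of related genes (rows); points are genes, filled where the adjusted p is under 0.05, bars are list medians and the dotted line is the median of all tested genes, 0.35. The G2/M and M/G1 list has the highest median, 0.71, and 2 of 10 histone genes are filled. The core histone genes include values of shallow libraries, which most genes named from the lists lack.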

How the data were processed

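The deposited table holds log2 RPM per gene and library. Bowtie and the R64 genome are named in the submitters' processing notes, while versions, counter, strand setting and handling of multiply matched reads are not stated there. The deposited log2 values sum to 1e+06 RPM per library on the linear scale, their lowest value fits 10 reads, and on that basis at least 93.4% of the values of each deeper library are whole reads within 0.01, from the values themselves. Of 6701 rows, 51 have no name and no value.

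The fit used limma 3.58.1 in R 4.3.3 on log2 RPM, empirical Bayes with trend and robust settings, unlisted values left out, for the 4364 genes that averaged at least 10 RPM and were listed at 0 min and by 4 or more libraries per window. Adjusted p-values are Benjamini-Hochberg over all of these, with a threshold of 0.05. The spline had 4 degrees of freedom and a separate term for 0 min. Ratios used two-sided exact permutation tests, which treat libraries as exchangeable. Read shares have exact Clopper-Pearson intervals of 95%. Scripts were tested on simulated data. Other tools were scipy 1.17.1, pandas 2.3.3 and numpy 2.4.6 in Python 3.11.15, with matplotlib 3.10.9 for figures. Sequences came from the R64 genome in RefSeq.

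The members and lists were chosen with earlier results of these data known. Of each list, all called genes were named if 2 to 5 were called, otherwise the 2 with the lowest p in late against early. For likeness, the 10 highest and 3 lowest correlations were named. Alternatives were other library sets, scalings, filters, windows, variance settings and splines, and each library left out in turn.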

Additional observations from a re-analysis of the deposited data

Results flagged for a closer look

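In 3 of 48 groups of 4 to 10 libraries 1 value lay far from the others, where chance gives about 1 in 20 groups. HHF2 had 11.38 log2 RPM at 195 min, with the other middle libraries at 10.55 to 10.83. HHF2 had 9.54 log2 RPM at 345 min, with the other late libraries at 10.26 to 10.91. The log2 ratio of HTA1 to HTA2 was -0.66 at 195 min, with the other middle libraries at 0.03 to 0.44. The library at 195 min held 192943 listed reads, in genes that took 91.8% of the reads at 0 min. At 345 min HTA2 was also the lowest of its late values, at 9.59, while HTA1 stood at 10.67.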

How the results depend on the processing

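No paired analysis was possible because each time point is 1 library and the labels give no replicate numbers. Filters of 0 and 50 RPM and plain variance settings changed no histone call. Without the shallow libraries called genes of all tested were 148 in middle against 0 min, 520 in middle against early and 407 in late against middle, against 77, 309 and 242 over all libraries, and called histone genes were 3 in middle against early, 1 in late against 0 min, 4 in late against early and 10 by the spline. Summing copies there gave 148, 518 and 407 genes. Leaving out 345 min as well gave 148 and 503 genes and 3, 1, 5 and 10 histone genes, and leaving out 345 min alone gave 6 genes in early against 0 min, 125 in late against middle, 4 histone genes in late against early and 2 by the spline. At an unadjusted p under 0.05, late against early had 1798 genes higher and 416 lower without 345 min and the shallow libraries, with 7 and 0 histone genes. Without 345 min alone it had 1607 and 407, with 4 and 0 histone genes. Late against 0 min had 1297 and 393 without 345 min and the shallow libraries, with 3 and 0 histone genes. With a corrected denominator, each library lowered for the share its listed genes take at 0 min, the spline called 8 histone genes. Of all genes the spline called 44.1% in that setting, 56.9% in the deeper libraries without 345 min, 42.3% without 345 min, 38.9% on the non-ribosomal scale, and 41.2% and 43.5% with 3 and 6 degrees of freedom. Settings without 345 min, summed copies in the deeper libraries, the corrected denominator, the fits without 1 library and the need for 3 values per window of 6 were chosen after seeing the data. Scaling to reads outside ribosomal protein genes gave 190 genes in middle against early, and 9 histone genes by the spline, as did centring; splines with 3 and 6 degrees of freedom gave 3 each. With 4 windows of 6 libraries late against early called 1010 genes and 0 histone genes (limma, 3678 genes tested). Without 1 library in turn it called 1137 to 1718 genes and 0 to 4 histone genes.

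Several changes that were not called over all libraries turned sign. In late against 0 min, where HTA1, HTA2, HTB1, HHT2, HHF2 and HTZ1 had 0.52, 0.32, 0.62, 0.31, 0.13 and 0.26 over all libraries, centring and the non-ribosomal scale gave -0.071 and -0.052 for HTA1, -0.28 and -0.27 for HTA2, -0.034 and -0.015 for HTB1, -0.25 and -0.23 for HHT2, -0.47 and -0.45 for HHF2 and -0.28 and -0.26 for HTZ1. In late against early, where HTA2, HHT2, HTZ1 and HTB1 had 0.01, 0.04, 0.10 and 0.48, they gave -0.10 and -0.18 for HTA2, -0.11 and -0.18 for HHT2 and -0.19 and -0.26 for HTZ1, and the non-ribosomal scale -0.018 for HTB1. The 4 windows gave -0.18 for HTA2, -0.13 for HHT2 and -0.0030 for HTZ1. Without the shallow libraries HTB2 went from -0.14 to 0.0031 and HHF2 from -0.35 to 0.085, and without 345 min too 0.10 and 0.23. HHF2 in middle against early turned from -0.06 to 0.44 without the shallow libraries (with and without 345 min), 0.21 centred, 0.18 on the non-ribosomal scale and 0.16 with the corrected denominator. Without 1 library in turn HTA2 ran from -0.078 to 0.16, HTB2 from -0.23 to 0.026 (deeper libraries -0.087 to 0.11), HHT2 from -0.014 to 0.13, HTZ1 from -0.021 to 0.21 and the ratio of HHO1 to HTA1 from -0.10 to 0.077. The causes were not tested. The histone share outside ribosomal protein reads was 1.303% at 0 min, 1.68% early and 1.44% in the middle window over all libraries. The early mean includes shallow libraries, with 3.21% at 90 min, and was 1.21% in the 5 deeper early libraries. In the deeper libraries HHO1 rests on as few as 21 reads and HTZ1 on 25.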
